A study of Mus musculus with 96 samples.

Results

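The genes examined here were 40 cell proliferation genes, whose products act when a cell copies its DNA and divides. They were chosen by symbol from a written list, not by a cut on their values, and all 40 were found among the 41575 gene symbols of the count table, of which 22493 had at least 1 count. RNA was measured in bulk in 96 libraries from 16 tissues of wild-type (WT) mice and of mice with both copies of Scx knocked out (Scx-/-), all aged 3 weeks, with 3 libraries per tissue and genotype. Scx encodes scleraxis, a transcription factor of tendon and ligament progenitors, and the labels name no treatment, strain or other allele. The tissues were those of the skeleton (bone, cartilage, muscle), the gut (stomach, intestine, rectum, liver), the brain (cortex, hippocampus), the chest (heart, lung), spleen, kidney, bladder, adipose and vascular. Which mouse each library came from is not given in the sources used here, so the p-values below measure the spread between libraries.

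Before a cell divides it licenses its replication origins by loading the MCM helicase, makes deoxynucleotides, copies its DNA once, and then assembles a spindle on which the chromosomes are separated. The genes for these steps are switched on in waves: E2F factors act on many replication genes at the start of S phase, and complexes that bind a CHR element act on many mitotic genes later, while resting cells keep both sets low. In young mice the spleen and the marrow inside bone still make blood cells, and the crypts of the intestine and rectum renew the lining, so dividing cells are known to be common there and rare in brain and muscle. The 40 genes were divided by role into 15 genes of DNA replication and nucleotide supply, 9 cyclins, kinases and degradation factors, 7 genes of spindle and cytokinesis, 6 genes of kinetochore and checkpoint, and 3 chromatin genes.

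Since replication and mitotic genes are known to be switched on in separate waves, promoters of both kinds are shown, taken from RefSeq on GRCm38.p6. Each line gives the 200 bases before the annotated start, in the direction of transcription. Capitals mark the CCAAT box (CCAAT or its reverse ATTGG), the CHR element (TTTGAA or TTCAAA) and the E2F core (spelled TTCCCGC, with the variant TTGGCGC, the variant TTCGCGC and the variant TTGCCGC, or the reverse complement of any of these), and neighbouring matches may share bases. The last bases of the Cdk1 and Cdc20 windows lie inside the GENCODE gene, which starts earlier there. Mcm5 and Mcm6, which encode subunits of the replicative helicase, lie on chromosomes 8 and 1. Cdk1 (the kinase that drives entry into mitosis), Cdc20 (an activator of the ubiquitin ligase that ends mitosis), Mki67 (the Ki-67 protein that coats mitotic chromosomes) and Top2a (the topoisomerase that untangles sister DNA) lie on chromosomes 10, 4, 7 and 11.
Mcm5 (chr8:75109309-75109508, plus strand): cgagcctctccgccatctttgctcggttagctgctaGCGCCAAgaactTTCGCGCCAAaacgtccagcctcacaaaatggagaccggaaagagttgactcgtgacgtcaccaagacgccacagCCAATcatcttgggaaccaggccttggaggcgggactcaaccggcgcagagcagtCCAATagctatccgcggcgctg
Mcm6 (chr1:128359706-128359905, minus strand): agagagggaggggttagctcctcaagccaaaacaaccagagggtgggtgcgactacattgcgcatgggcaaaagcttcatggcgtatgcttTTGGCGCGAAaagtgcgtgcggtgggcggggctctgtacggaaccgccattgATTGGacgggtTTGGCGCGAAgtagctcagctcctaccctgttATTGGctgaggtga
Cdk1 (chr10:69352913-69353112, minus strand): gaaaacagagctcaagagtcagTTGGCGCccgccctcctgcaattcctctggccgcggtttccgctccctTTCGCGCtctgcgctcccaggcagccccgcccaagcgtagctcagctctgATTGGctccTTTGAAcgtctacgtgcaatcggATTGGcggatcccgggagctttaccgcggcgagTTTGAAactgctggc
Cdc20 (chr4:118437344-118437543, minus strand): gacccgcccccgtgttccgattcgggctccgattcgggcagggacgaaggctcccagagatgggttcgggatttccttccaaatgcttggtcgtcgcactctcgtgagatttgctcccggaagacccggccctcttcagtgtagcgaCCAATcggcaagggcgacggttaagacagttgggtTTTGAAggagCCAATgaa
Mki67 (chr7:135716380-135716579, minus strand): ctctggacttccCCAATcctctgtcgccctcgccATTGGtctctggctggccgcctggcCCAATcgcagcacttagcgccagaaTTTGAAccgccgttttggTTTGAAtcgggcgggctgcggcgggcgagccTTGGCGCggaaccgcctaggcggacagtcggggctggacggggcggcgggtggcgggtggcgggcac
Top2a (chr11:99024190-99024389, minus strand): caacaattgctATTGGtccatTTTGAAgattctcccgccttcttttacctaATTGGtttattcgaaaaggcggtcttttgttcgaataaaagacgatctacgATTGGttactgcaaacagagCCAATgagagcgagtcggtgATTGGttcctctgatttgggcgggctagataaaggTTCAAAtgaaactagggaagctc

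In these windows Mcm5 and Mcm6 held E2F cores and no CHR element, Cdc20 and Top2a held CHR elements and no E2F core, and Cdk1 and Mki67 held both. The CHR element of Cdc20 began 18 bases before the start, the nearer one of Top2a 23 bases and the nearer one of Cdk1 15 bases before it. Over the longer windows of 300 bases (the start and both sides of it), 34 of the 40 members matched, with 37 promoters. The CHR element was present in 14 of 19 mitotic promoters (73.7%), in 1 of 15 replication promoters (6.67%, Mcm2) and in 17.9% of all 32851 RefSeq promoters. The E2F core showed the opposite split, with 11 of 15 replication promoters (73.3%), 3 of 19 mitotic promoters (15.8%) and 9.57% of all promoters. A CCAAT box was present in 31 of the 37 member promoters (83.8%) against 37.4% of all. A match describes the letters in a window and is not evidence of binding. Aurkb, Ccna2, Gmnn, Kif20a, Mcm4 and Tpx2 are named only.

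The libraries held 11244 to 1658192 counts (median 251640), so a gene at 0 in a shallow library may still be expressed. Values are given as CPM, the counts of a gene divided by the total of its library and scaled to the same total in all. Scx had 80 counts in 12 of 48 wild-type libraries and 9 counts in 1 of 48 Scx-/- libraries, replicate 1 of cartilage. The wild-type cartilage libraries held 0, 7 and 1 counts of it, so Scx goes against the label of that library. The tissue labels matched their defining markers with exceptions that touch the genes here. The libraries labelled adipose carried 368047 to 480366 CPM of 11 pancreatic acinar genes and 5.99 to 149 CPM of 6 adipocyte genes, of which 4 had any count. The vascular libraries carried 3655 to 13251 CPM of 5 brown fat genes beside 14152 to 35471 CPM of 5 vessel wall genes, and skeletal muscle genes reached 96366 to 122249 CPM in cartilage and 19234 to 79154 CPM in bone. In bulk RNA, fewer cells of a type and less RNA per cell cannot be told apart.

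Spleen carried far more of these transcripts than any other tissue, followed by bone, rectum and intestine. The summed level of the 40 members was 7727 CPM as a mean over the 6 spleen libraries, 2751 in bone, 1498 in rectum and 1347 in intestine, and then 903 in cartilage, 758 in stomach and 613 in kidney. Against a mean of 424 CPM over the 12 tissues other than these 4, spleen was 18.2-fold, bone 6.49-fold, rectum 3.53-fold and intestine 3.18-fold higher. Cortex (158 CPM) and hippocampus (158 CPM) were lowest. In wild-type spleen the 3 libraries held 5748, 9180 and 15230 CPM, and in Scx-/- spleen 11106, 2276 and 2819 CPM. Thus 4 of the 6 spleen libraries lay above the highest of the 90 other libraries, a bone library at 4538 CPM, and the other 2, both Scx-/-, lay inside the range of bone. Rectum and intestine were neighbours that overlapped, and intestine lay above rectum (1340 against 1258 CPM) when the counts of a tissue were pooled. With TMM-scaled library sizes rectum stayed above intestine, and cartilage lay between them.

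**Figure D1:**
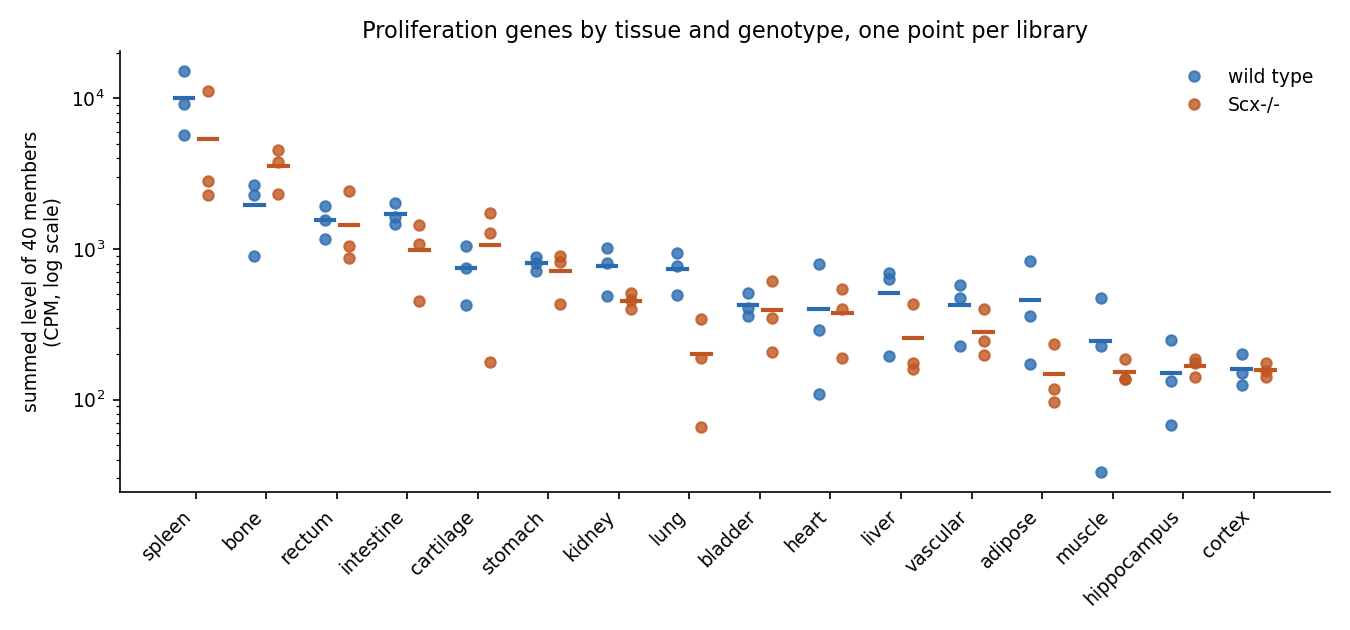
Summed CPM of the 40 proliferation genes in each of the 96 libraries (log axis), by tissue, with wild-type and Scx-/- libraries as separate points and bars at group means. The 6 spleen libraries lie between 2276 and 15230 CPM, and the cortex and hippocampus libraries have the lowest mean of 158 CPM.

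The number of members seen at equal depth followed a like order. Thinned to 25000 counts, an average spleen library was expected to show 31.1 of the 40 members, bone 19.0, rectum 14.7 and intestine 11.9, against 3.23 in cortex and 2.74 in hippocampus. At their full depth spleen libraries showed 30 to 39 members (median 39). Kif11, the mitotic motor that pushes the spindle poles apart, was at 0 in all 96 libraries, which leaves 39 members that could be tested. Of these, 17 had a count in all 16 tissues and 22 were at 0 in at least 1 tissue.

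Across tissues, 36 of the 39 members had their highest mean in spleen. Bub1, a checkpoint kinase, was highest in bone (35.5 against 28.4 CPM in spleen), Cenpe, a kinetochore motor, in rectum (48.5 against 45.1 CPM), and Kif23, a motor of cytokinesis, in intestine (43.1 against 31.9 CPM). Bone was second for 24 members and intestine for 5. The ratio of the spleen mean to that of the next tissue, over the members led by spleen, ran from 1.06 for Cdc20 to 13.6 for Bub1b, with a median of 2.52. Per kilobase of exon, a measure that is uncertain where reads are enriched for 3′ ends, the highest mean over all libraries belonged to Pcna (31.0 CPM per kb), the sliding clamp of DNA polymerase, followed by Rrm2 (25.1) and Hmgb2 (22.8). These means weigh tissues of unlike levels alike, and in spleen the means of Mki67 (603 CPM) and Rrm2 (583 CPM) lay above that of Pcna (360 CPM). In CPM over all libraries, Pcna had the highest mean (74.4) and, after Kif11, Bub1 the lowest (5.16).

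**Figure D2:**
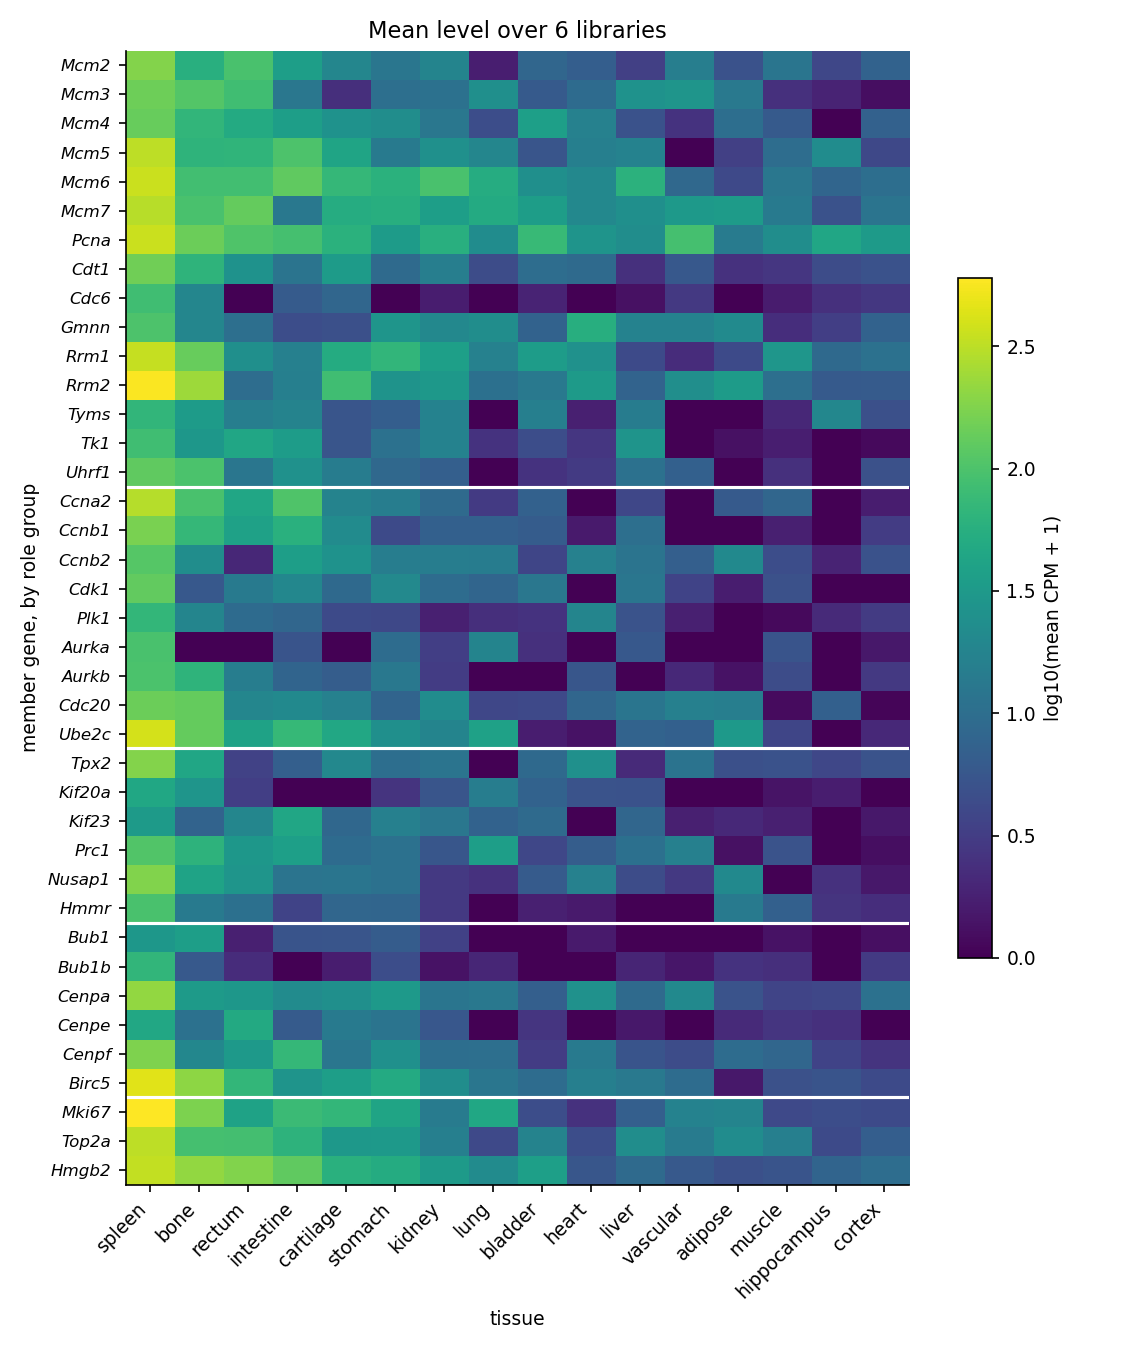
Mean level of each member in each tissue as log10(mean CPM + 1) over 6 libraries, with genes in rows ordered by role and tissues in columns. Spleen is the strongest column for 36 of 39 members with a count, and bone comes second for 24.

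Among the replication genes, Pcna was at 360 ± 239 CPM (SD, n = 6) in spleen, 142 in bone, 103 in rectum and 90.9 in vascular, and lowest at 13.4 in the libraries labelled adipose. Mcm6 was at 356 ± 214 CPM in spleen, 126 in intestine, 95.9 in kidney and 85.3 in bone. Mcm5 was at 319 ± 231 CPM in spleen, 98.9 in intestine and 64.4 in rectum and had no count in vascular. Both helicase subunits had intestine as their second tissue, where Pcna had bone. Rrm2, the regulated subunit of ribonucleotide reductase, was at 583 ± 482 CPM in spleen and 234 ± 182 in bone, against 5.09 in hippocampus. Its spleen libraries read 392, 438 and 1302 CPM in wild-type mice and 1052, 91.1 and 226 in Scx-/- mice. The genotypes overlapped, with the low values in Scx-/- replicates 2 and 3.

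Among the cyclins and kinases, Ccnb1, cyclin B1, which activates Cdk1, was at 167 ± 146 CPM in spleen, 69.8 in bone, 56.7 in intestine and 37.8 in rectum, and at 0 in adipose, hippocampus and vascular. Cdk1 was at 130 ± 59.5 CPM in spleen, 19.6 in stomach and 18.2 in intestine, and at 0 in cortex, heart and hippocampus. Of the kinetochore genes, Birc5, the survivin subunit of the chromosomal passenger complex, was at 457 ± 272 CPM in spleen, 201 ± 143 in bone and 68.4 in rectum. Its spleen libraries read 340, 397 and 970 CPM in wild-type mice and 530, 268 and 237 in Scx-/- mice, an overlap of the genotypes. In bone Birc5 read 69.3, 0 and 170 CPM in wild-type and 328, 330 and 308 CPM in Scx-/- libraries, so the Scx-/- libraries all lay above. Of the spindle genes, Tpx2, which activates the kinase Aurora A, read 163, 159 and 485 CPM in wild-type spleen and 124, 42.8 and 127 CPM in Scx-/- spleen, without overlap.

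The chromatin genes followed. Mki67 was at 603 ± 436 CPM in spleen, 170 in bone, 78.2 in intestine and 68.2 in cartilage, and lowest in heart at 1.49 CPM. In spleen its libraries read 531, 524 and 1312 CPM in wild-type mice and 889, 177 and 187 in Scx-/- mice. Top2a was at 317 ± 250 CPM in spleen, 91.0 in bone, 87.9 in rectum and 62.3 in intestine, and lowest in lung at 3.13 CPM. Hmgb2, a protein that bends DNA and is abundant in cycling cells, stood higher in bone (216 ± 142 CPM) and rectum (179 ± 109 CPM) relative to spleen (337 ± 168 CPM) than Mki67 did. In Scx-/- spleen, replicate 1 was the highest library for all 3 genes. Hmgb2 read 243, 33.5 and 339 CPM in wild-type bone and 357, 274 and 47.3 CPM in Scx-/- bone, and Rrm2 165, 66.9 and 233 CPM against 374, 515 and 47.3 CPM. Wild-type replicate 2 and Scx-/- replicate 3 were the low bone libraries for both genes, and the genotypes overlapped.

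**Figure D3:**
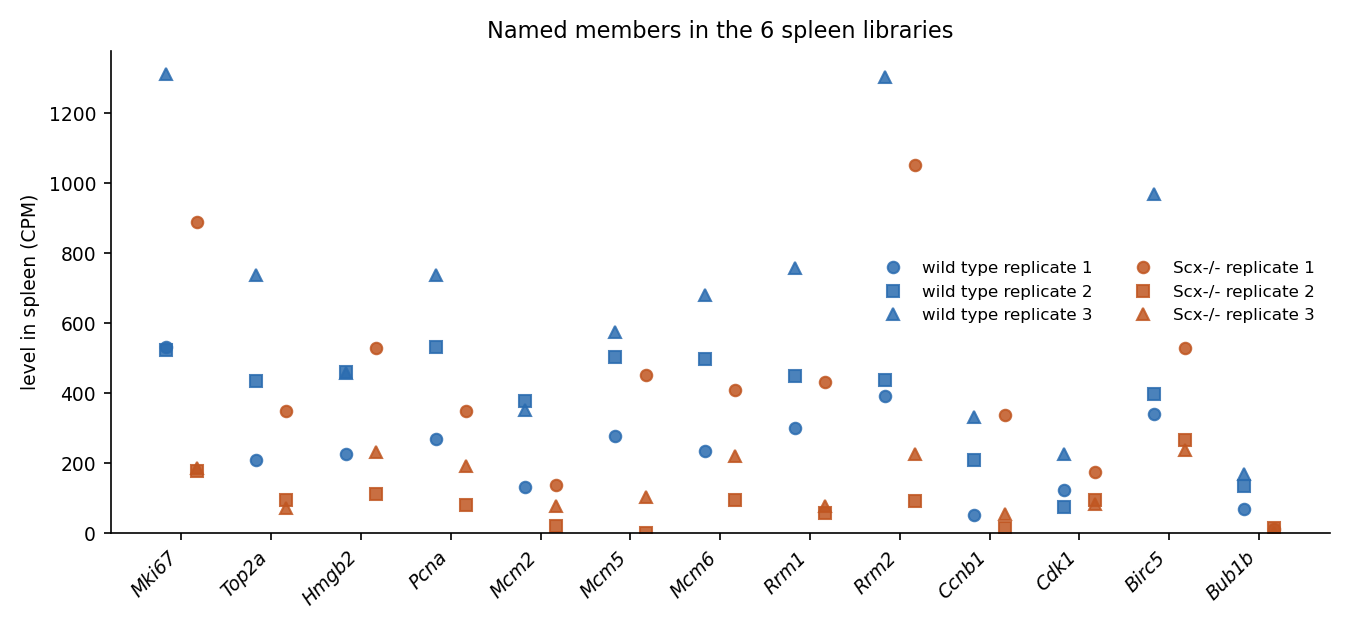
CPM of named members in each of the 6 spleen libraries (linear axis from 0), with color for genotype and marker shape for replicate. Mki67 runs from 177 to 1312 CPM, and Scx-/- replicate 1 lies above the other 2 Scx-/- libraries in every gene plotted except Bub1b.

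Whether these levels exceeded the spread between libraries was tested with edgeR's quasi-likelihood model over 32 groups of tissue and genotype, comparing each of spleen, bone, intestine and rectum with the mean of the 12 other tissues, both genotypes averaged, with Benjamini-Hochberg adjustment over all 22493 genes with a count. These 4 tissues were chosen with earlier results of these data known. In spleen all 39 members tested were higher at an adjusted p under 0.05, when 10.4% of all genes were. The log2 fold changes ran from 3.07 for Gmnn (geminin, an inhibitor of relicensing) to 6.56 for Ccna2 (cyclin A2), with a median of 5.2 against -0.14 over all genes. For Mki67 the log2 fold change was 6.28 (SE 0.353, adjusted p = 9.35e-68), for Rrm2 5.44 (SE 0.329) and for Pcna 3.11 (SE 0.345). The median log2 fold change was 4.57 over the 15 replication genes and 5.99 over the 9 cyclins, kinases and degradation factors, a difference between groups that was not tested. Many members were at 0 in some of the other tissues, where a fitted fold change depends on the small count that the model adds, so the ratios of summed CPM above are the plainer measure of size.

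In bone, 15 members were higher, when 2.83% of all genes were. They were 7 of 15 replication genes, 5 of 9 cyclins, kinases and degradation factors, 1 of 6 kinetochore genes, none of the 6 spindle genes tested, and Mki67 and Hmgb2. The highest fold change was that of Uhrf1, which carries DNA methylation to the new strand (log2 fold change 5.16, SE 0.824), with Ccnb1 (5.03, SE 0.820) next and Aurkb between it and Cdc20 (4.96, SE 0.712). In rectum, 11 members were higher, when 5.01% of all genes were: Birc5, Cenpe, Hmgb2, Mcm2, Mcm3, Mcm5, Mcm7, Prc1, Tk1, Top2a and Ube2c. Hmgb2 had a log2 fold change of 3.26 (SE 0.484, edgeR adjusted p = 1.43e-09), and its rectum libraries read 198, 60.1 and 241 CPM in wild-type mice and 356, 121 and 98.7 in Scx-/- mice. The genotypes overlapped. Mcm7, another helicase subunit, read 96.6, 216 and 60.3 CPM in wild-type rectum and 216, 160 and 47.8 CPM in Scx-/- rectum. Pcna, which was not called there, read 32.2, 72.2 and 201 CPM against 102, 108 and 105 CPM. Both genes had a count in all 6 rectum libraries.

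In intestine, 5 members were higher, when 3.65% of all genes were: Ccna2, Cenpf, Hmgb2, Mcm5 and Mcm6. The Scx-/- intestine libraries held only 54955, 30014 and 26500 counts. Mcm6 read 103, 275 and 10.6 CPM in wild-type intestine and 200, 167 and 0 in Scx-/- intestine. Hmgb2 read 132, 188 and 95.8 CPM against 0, 333 and 0 CPM, and Ccna2 read 103, 86.4 and 341 CPM against 91.0, 0 and 0 CPM. Each of these members was at 0 in at least 1 Scx-/- library and in no wild-type one. Leaving out single intestine libraries gave 2 to 6 members, with 2 (3.08% of all genes) without Scx-/- replicate 2 and 3 (2.81%) without wild-type replicate 1. Wild-type libraries alone gave 14 in intestine (7.07%) and Scx-/- libraries alone 0 (2.3%). In bone wild-type libraries alone gave 10 members (3.09%) and Scx-/- libraries alone 25 (3.84%), and in rectum they gave 7 (4.44%) and 10 (6.87%). Without replicate 1 of every group the counts were 9 in bone (1.61% of all genes), 2 in intestine (2.07%) and 7 in rectum (3.7%), without replicate 2 intestine had 1 (3.24%) and without replicate 3 rectum had 7 (3.63%). No member was lower in any of the 4 contrasts by edgeR, when 1.84% of genes were lower in spleen, 0.498% in bone, 1.45% in intestine and 0.485% in rectum. At an unadjusted p under 0.05 in either direction, 39 members stood apart in spleen (18.4% of all genes), 21 in bone (8.77%), 11 in intestine (9.99%) and 21 in rectum (11.9%). DESeq2 at an adjusted p called 30, 16, 8 and 8 higher (6.12%, 2.72%, 3.77% and 2.64% of all genes) and none lower (4.29%, 1.52%, 2.98% and 1.43% of all genes), and gave no adjusted p for 6, 13, 11 and 9 members. In the edgeR model 8 members in bone, 20 in intestine and 10 in rectum had an unadjusted p of at least 0.99. Of the 39 members, 8 had no count in wild-type bone, 19 none in Scx-/- intestine and 7 none in wild-type rectum, and of these 1, 2 and 2 had none in the other genotype either. In an additive model of tissue and genotype, added after the data were seen, 24 members were higher in bone (4.38% of all genes), 13 in intestine (5.95%) and 13 in rectum (7.55%), and all 39 in spleen (11.6%), with none lower (0.849%, 2.05%, 0.667% and 3.09% of all genes).

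In rectum and intestine, markers of other cells varied beside these values. The Scx-/- rectum libraries held 5847 to 15487 CPM of 6 keratinocyte genes and the wild-type ones at most 40.2 CPM, with 3 of the genes detected, while 4 colon genes were at 1568 to 3139 CPM in wild-type and 88.9 to 1232 CPM in Scx-/- libraries. The summed level of 5 intestinal crypt genes was 351 to 848 CPM in wild-type intestine and 582, 0 and 0 CPM in Scx-/- intestine. In spleen, 10 erythroid precursor genes were all detected, at 7928, 6956 and 12089 CPM in wild-type mice and 15252, 6106 and 3810 CPM in Scx-/- mice. Scx-/- replicate 1 was the highest of the Scx-/- libraries for both the erythroid and the proliferation genes. Pancreatic acinar genes were at 11306, 9384 and 94.9 CPM in wild-type spleen and 47.0, 72941 and 37340 CPM in Scx-/- spleen, so the 2 libraries lowest in proliferation genes were the 2 highest in pancreatic genes. The part of these cells in the proliferation values was not tested.

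Genes outside the list that act in the same steps were also higher in spleen, where 10.4% of all genes were higher and 1.84% lower. Of 23 further S phase genes with a count, 21 were higher (not Gins2 and Rfc4), and of 31 further mitosis genes 30 (not Kif20b). Of 11 inhibitors of the cell cycle, 6 were also higher, among them Cdkn2d (log2 fold change 3.84, SE 0.494), Rb1 (3.42), and Btg1 (3.12), and 1 was lower, Cdkn1c (-1.82). In bone, where 2.83% of all genes were higher, 1 of the 23 S phase genes (Prim1), 5 of the 31 mitosis genes and 3 of the 11 inhibitors (Rb1, Cdkn1c and Gas1) were. In rectum (5.01% of all genes) 0, 4 and 1 were higher, and in intestine (3.65%) 1, 1 and 0, with 1 inhibitor, Ccng1, lower (1.45%).

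Replication and mitotic members kept a similar order across tissues, with a Spearman rho of 0.919 over the 32 group means, which share their libraries and their depth. The summed replication CPM over the summed mitotic CPM was 1.07 in spleen, 0.970 in intestine and 1.21 in bone, and was higher in cortex (2.85), bladder (3.22) and hippocampus (4.52), while the samples labelled adipose, which were also low in these transcripts, had 1.08. In hippocampus these were 119 CPM against 26.2 CPM. This ratio was not tested.

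**Figure D4:**
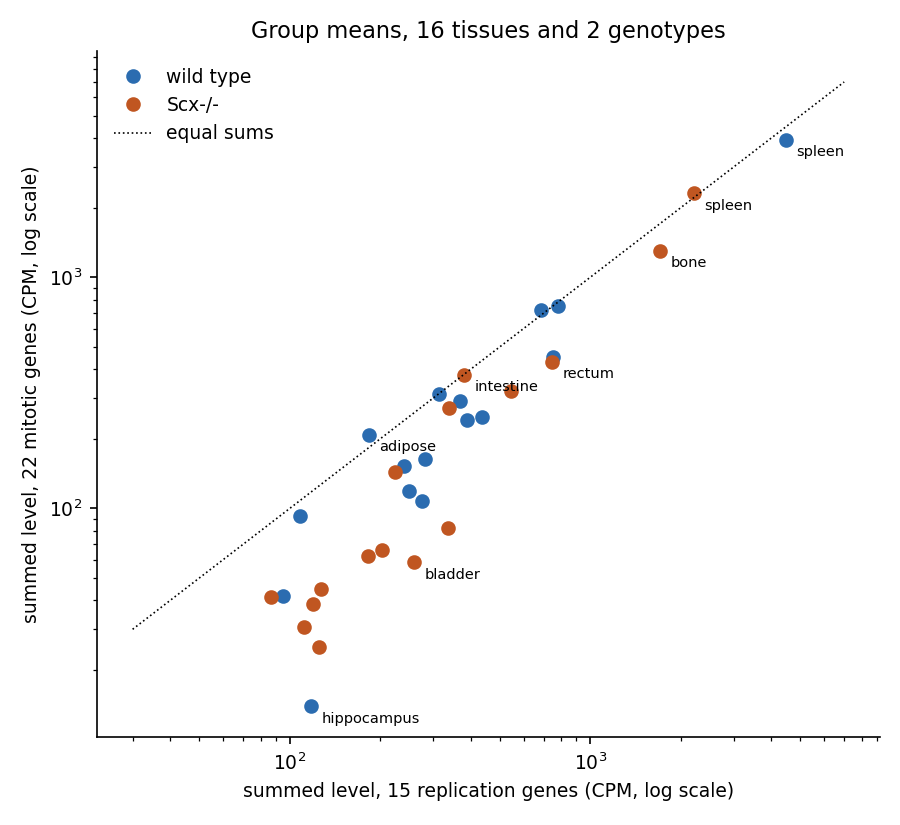
Summed CPM of the 15 replication genes against that of the 22 mitotic genes, as means of 3 libraries for each of 32 groups (log axes), with a dotted line at equal sums. The groups lie along a rising band, with wild-type hippocampus (8.46) and Scx-/- muscle (4.95) at the highest ratios of replication to mitotic transcripts. The wild-type hippocampus ratio divides 118 by 13.9 CPM and rests on 73 counts over all 40 members. Scx-/- hippocampus had a ratio of 3.09.

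The comparison the study was designed for is Scx-/- against wild type within each tissue. In spleen, Scx-/- had a lower mean for 35 of 39 members (89.7%), when 59.4% of genes with a count did, in kidney for 32 of 39 (82.1% against 56.6%), in liver for 28 of 36 (77.8% against 48.5%) and in muscle for 29 of 38 (76.3% against 44.8%). In bone it was lower for 10 of 38 (26.3% against 51.2%) and in cartilage for 12 of 37 (32.4% against 49.5%), so that more members had the higher mean in Scx-/- mice. Without the cartilage library labelled Scx-/- that held Scx counts it was 9 of 35 (25.7% against 53.6%). Intestine (70.3% against 67.1%) and adipose (45.2% against 35.8%) stood closer to all genes. The members of a tissue share their libraries, so these shares are descriptions. Summed CPM on library totals overlapped between the genotypes in 14 tissues and did not in lung and intestine, where Scx-/- lay below. Wild-type lung held 494, 770 and 940 CPM, and Scx-/- lung 66.1, 189 and 345 CPM. In intestine the gap was small, with 1631, 1468 and 2023 CPM in wild-type and 1074, 1433 and 453 CPM in Scx-/- libraries. TMM-scaled sizes were not used for this count of tissues.

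**Figure D5:**
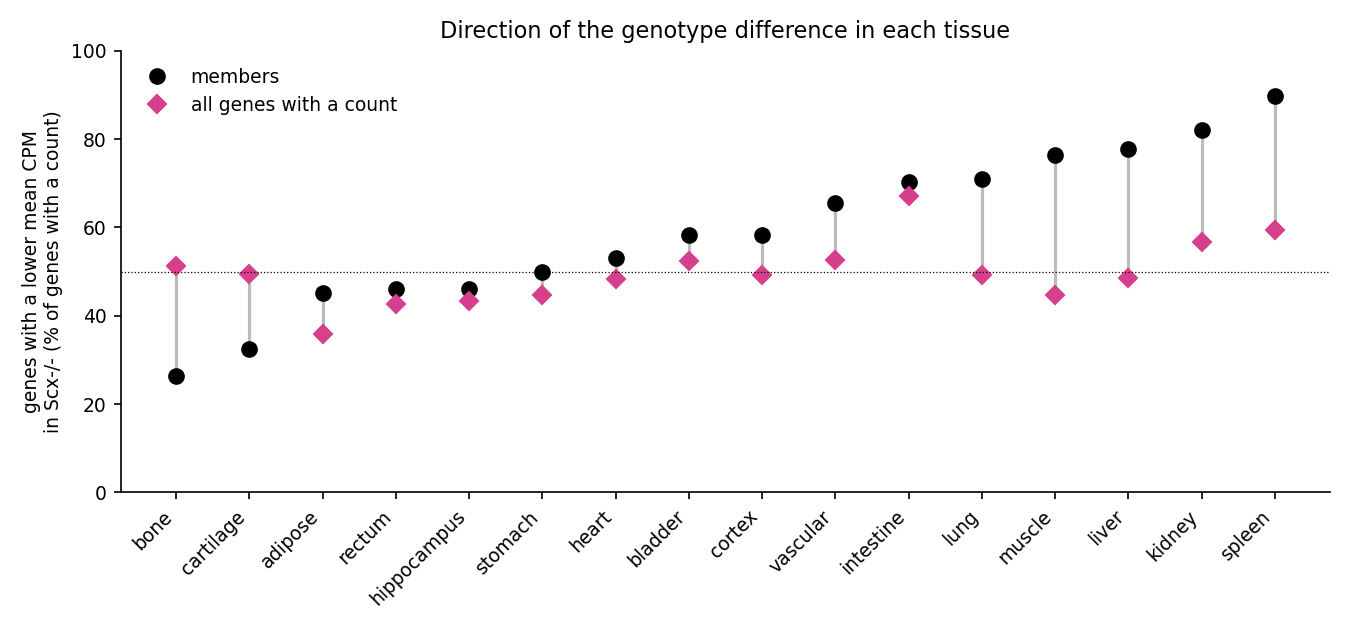
Percent of members with a lower mean in Scx-/- than in wild-type libraries, by tissue, beside the percent of all genes with a count, with a dotted line at 50%. Spleen (89.7%) and kidney (82.1%) are highest and bone (26.3%) lowest.

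Within tissues, no member passed an adjusted p under 0.05 by edgeR in 560 tests, when 0.0591% of tests over all genes were higher and 0.0323% lower. At the thresholds of the study (unadjusted p under 0.05 and a fold change over 2), 26 tests were lower (4.64%, against 1.85% over all genes) and 8 higher (1.43%, against 1.85%) from 23 members in 13 tissues. The lower results were 6 in muscle (2.44% of all genes there), 4 in liver (2.01%), 3 in kidney (2.69%), 3 in lung (1.46%), 3 in spleen (1.49%), 3 in adipose (1.11%), 2 in bladder (1.95%), 1 in heart (2.09%) and 1 in intestine (2.96%). The higher ones were 2 in bone (1.43%), 2 in heart (1.31%), 2 in stomach (2.02%), 1 in cartilage (1.71%) and 1 in cortex (1.35%). The members lower made up 15.8% of the 38 tested in muscle and 11.1% of the 36 tested in liver, the highest shares. Of these 34 results (6.07% of the tests, against 3.71% over all genes), 22 had a genotype with no count at all, and 6 rested on a single library. Without wild-type replicate 2, wild-type replicate 3 or Scx-/- replicate 2 the lower results numbered 13 (2.41% of the member tests, against 1.29% over all genes), 10 (1.87% against 1.48%) and 12 (2.19% against 1.38%). A filter on low counts (filterByExpr) kept 99 member tests, of which 3 were lower (3.03% against 1.56%) and 0 higher (1.77% over all genes), and with 3 libraries against 3 an exact permutation test cannot give a p under 0.1.

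Top2a was lower in 3 tissues. In kidney it read 39.4, 33.0 and 14.9 CPM in wild-type and 2.24, 0 and 0 CPM in Scx-/- libraries, with no overlap (log2 fold change -4.80, SE 1.92, edgeR adjusted p = 0.791). In muscle it read 0, 25.2 and 63.3 CPM against 0, 1.29 and 0 CPM (-5.69, SE 1.72, edgeR adjusted p = 0.336), and in liver 0, 36.7 and 88.2 CPM against 5.21, 0 and 1.72 CPM (-3.74). The groups overlapped in muscle and liver. In kidney, Cdc20 also had counts in both genotypes and no overlap: 25.6, 35.2 and 65.5 CPM against 0, 0 and 4.12 CPM (-5.12, SE 1.70, edgeR adjusted p = 0.443). Beside these, Mcm3 in liver read 0, 16.3 and 120 CPM against 10.4, 3.40 and 0 CPM, and Ube2c in adipose 0, 0 and 181 against 0, 0 and 2.01 CPM. In both, wild-type replicate 3 held most of the counts.

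Some members did not overlap between the genotypes. In Scx-/- kidney 8 of 39 lay wholly below wild type, when 7.33% of all genes did: Mcm5, Cdt1, Tyms, Ccna2, Aurkb, Cdc20, Prc1 and Top2a. Rrm1 lay above there (3.38%). In intestine 8 of 37 lay below (8.88%): Gmnn, Tk1, Uhrf1, Ccnb1, Ccnb2, Ube2c, Cenpa and Birc5. All of these but Ube2c had no count in any Scx-/- intestine library. Those libraries held 54955, 30014 and 26500 counts, against 386890, 127356 and 93927 in wild-type intestine. The part of depth in these zeros was not tested. In spleen Gmnn, Tpx2 and Bub1b lay below (6.24%), in rectum Mcm5 and Cdt1 (2.23%), in stomach Cdc20 and Top2a (2.92%) and in vascular Cenpa and Mki67 (5.06%). Above lay 6 of 38 in bone (2.79%), Mcm6, Mcm7 and Pcna in hippocampus (6.88%) and Kif23 in rectum (5.88%). The bone members were Birc5, Cenpf, Mcm5, Tk1, Top2a and Tyms. Tyms, thymidylate synthase, stood at 0 in all wild-type libraries and 20.8, 56.3 and 118 CPM in Scx-/- libraries, Tk1, thymidine kinase, at 0 against 20.8, 8.05 and 142 CPM, and Mcm5 at 17.3, 0 and 0 CPM against 62.4, 161 and 142 CPM. Erythroid precursor genes also lay apart in bone, at 820 to 1924 CPM in wild-type and 2342 to 4716 CPM in Scx-/- libraries, and their part in these values was not tested.

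Where one genotype had no count, the fold is a bound: the pooled level of the other genotype against 3 counts over the empty group. It covers counting error only and not the spread between libraries, so it is no floor for single libraries. By that measure Birc5 in bladder (5.10, 12.5 and 34.3 CPM in wild-type mice) was at least 5.13-fold lower in Scx-/- mice, Ube2c in lung (73.1, 21.4 and 132 CPM) at least 11.3-fold and Ccnb1 in intestine (93.0, 173 and 74.5 CPM) at least 3.97-fold lower. These 3 had counts in all 3 wild-type libraries. Ccnb2 and Nusap1 in adipose, Tpx2 in bladder and heart, Ccnb1 in kidney, Kif23 in liver, Mki67 and Prc1 in lung and Cenpf in muscle had counts in fewer libraries, with bounds of 3.56-fold to 14.7-fold. Cenpf in muscle and Mki67 in lung rested on 1 library, at 44.3 and 263 CPM. Higher in Scx-/- mice were Cenpa in cartilage (at least 13-fold, at 16.5, 0 and 123 CPM, the first in the library with Scx counts), Gmnn in cortex (at least 14.0-fold), Plk1 in heart (at least 7.36-fold), Nusap1 in bone (at least 8.19-fold) and Tk1 and Cdt1 in stomach (at least 9.63-fold and 8.07-fold), each with counts in 2 of 3 libraries. Gmnn in heart read 11.4, 0 and 10.7 CPM against 155, 6.26 and 140 CPM, and Cdt1 in bone 0, 16.7 and 0 against 166, 193 and 0 CPM. The remaining results at these thresholds (Aurka, Birc5, Ccnb2 and Mki67 in muscle, and Cdk1 in liver) were all lower.

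In spleen 3 members met the thresholds of the study. Bub1b, a spindle checkpoint protein, read 70.7, 134 and 169 CPM in wild-type and 12.8, 16.1 and 0 CPM in Scx-/- libraries, with no overlap (log2 fold change -3.31, SE 1.31, edgeR adjusted p = 0.788). Mcm2 read 133, 379 and 353 CPM against 137, 21.4 and 77.1 CPM (-1.63, SE 0.719), and Rrm1, the large subunit of ribonucleotide reductase, read 302, 448 and 759 CPM against 432, 58.9 and 77.1 CPM (-1.14, SE 0.581). Scx-/- replicate 1 stood within the wild-type range for both, apart from the other 2. Without that library, 4 members were lower at an adjusted p under 0.05, when 0.222% of all genes were, and none higher (0.0666%): Nusap1, which bundles spindle microtubules (-5.95, edgeR adjusted p = 0.00254), Mcm5 (-2.99, 0.00909), Rrm1 (-2.64, 0.0194) and Cdc20 (-4.33, 0.0378). With that library kept, no member passed an adjusted p under 0.05 in spleen. The summed member level was 11106 CPM in the library left out and 2276 and 2819 CPM in the 2 kept. Leaving it out therefore favours lower calls. The library left out was also the Scx-/- spleen library with 47.0 CPM of pancreatic acinar genes, and the 2 kept carried 72941 and 37340 CPM.

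Averaged over the 16 tissues, no member was called by edgeR (0.0445% of genes higher, 0.04% lower). Of the 39, 32 had an unadjusted p of at least 0.99 in this fit. Only 1 member, Pcna, had a count in all 32 groups, as did 2537 of all genes. For those 32 members the fit could not show a change, so the lack of calls decides nothing for them. At an unadjusted p under 0.05, 2 were lower (1.24% of all genes): Top2a (log2 fold change -1.99, SE 0.649, edgeR adjusted p = 0.546) and Mki67 (-1.76, SE 0.619, adjusted p = 0.777). DESeq2 called Top2a (-2.11, adjusted p = 6.02e-05) and Ube2c (-1.89, adjusted p = 0.00329) lower, when 0.311% of genes were, and none higher (0.151%), and gave no adjusted p for 13 members. The additive model called 1, Top2a (-1.18, SE 0.303, edgeR adjusted p = 0.0243), when 0.147% of genes were lower, and none higher (0.338%). The call of Top2a was lost without spleen (-1.20, adjusted p = 0.0698), without replicate 2 of every group (-1.03, adjusted p = 0.54) and without replicate 3 (-0.70, adjusted p = 0.813). It was made without spleen and bone (-1.58, adjusted p = 0.0053) and without replicate 1 (-1.93, adjusted p = 0.00143). In the test of a difference of the Scx-/- effect between tissues, edgeR called 0 members (0.142% of genes called), with 7 members at an unadjusted p under 0.05 (5.33% of all genes), and DESeq2 called 0 (0.489% of genes), with 2 at an unadjusted p under 0.05 (5.15% of all genes) and no adjusted p for 24.

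Further cell cycle genes gave no call at an adjusted p within tissues by edgeR. At the thresholds of the study, S phase genes were lower in 11 and higher in 2 of 297 tests, mitosis genes lower in 12 and higher in 4 of 391, and inhibitors lower in 11 and higher in 4 of 175, when 1.85% of tests over all genes were lower and 1.85% higher.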

How the data were processed

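Bulk RNA-seq by the multiplexed MuSeq strategy covered 96 libraries, 3 per tissue and genotype. The authors extracted RNA with Trizol, reverse transcribed it with SuperScript II, made second strands with NEBNext, built libraries with Nextera XT, aligned reads to mm10 by Bowtie2 (default settings) and summed them per gene by HTSeq. What the authors deposited are raw counts per gene symbol. For tool versions, annotation, strand setting and molecular identifiers, nothing is given in the sources used here. The paper describes reads enriched for 3′ ends, and the record a method based on Smart-seq2.

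CPM was computed on library totals. Genotypes were compared within tissues by edgeR 4.0.16 (R 4.3.3; TMM, glmQLFit with robust estimation) on genes with a count in any of the 6 libraries, and tissues, the average and the interaction in 1 fit over 32 groups, with Benjamini-Hochberg adjustment over all genes. Each SE is the absolute log2 fold change divided by the square root of the edgeR F statistic. It thus restates the test and is not a separate measure of spread. DESeq2 1.42.0, the tool of the study, was an alternative. A p under 0.05 with a fold change over 2 is the threshold of the study. The study left vascular out of its comparisons, and it was kept here. Python 3.11.15 with pandas 2.3.3 was used. The members, gene lists and tested tissues were chosen with earlier results of these data known. The additive model, the fits by genotype or without single libraries of a tissue, the average without spleen and bone, and the cartilage shares without 1 library were added after the data were seen. Named were 10 members across tissues, the 3 highest in spleen, bone, intestine and rectum, up to 3 per tissue at the thresholds of the study with a mean of at least 10 CPM, and the highest and lowest members overall. Any further member was named after its values were seen. On simulated counts, 159 of 200 genes changed 16-fold and 0 of 200 changed 4-fold were called in spleen between genotypes, and 178 of 200 changed 8-fold in spleen against the 12 other tissues, there beside 21 unchanged genes (21904 genes). The changed genes were drawn above a minimum mean count, at a fixed dispersion, and in the fit over 32 groups all tissues shared 1 baseline. These rates therefore do not describe members with few counts or with groups at 0. The closest pair of replicates had a chi-square of 6.93 per degree of freedom, above counting noise. Detection bounds use 3 counts and cover counting error only.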

Additional observations from a re-analysis of the deposited data

Results flagged for a closer look

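In 7 members every Scx-/- library lay above every wild-type library in one tissue and below every wild-type library in another, as did 12% of all genes with a count. Each was then read against the edgeR interaction of genotype and tissue, which did not pass an adjusted p under 0.05 for any of them. Top2a (above in bone, below in adipose, kidney and stomach) had an adjusted p of 0.336 in edgeR, Mcm5 (above in bone, below in kidney and rectum) 0.694 and Birc5 (above in bone, below in bladder and intestine) 0.765. Cenpf (above in bone and heart, below in cortex), Pcna (above in hippocampus and muscle, below in liver), Tk1 (above in bone, below in intestine) and Tyms (above in bone, below in kidney) each had an edgeR adjusted p of 1. For 6 of the 7, bone was a tissue where Scx-/- lay above.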

How the results depend on the processing

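Within tissues at the thresholds of the study, the 8 higher and 26 lower results became 0 and 3 with filterByExpr, 0 and 10 with the replicate block (0.732% and 0.654% of tests over all genes), and 15 and 39 in the fit over 32 groups (1.94% and 1.89%). Without one replicate they ranged from 4 to 7 higher and from 10 to 35 lower (1.38% to 1.71% and 1.29% to 1.8% over all genes), and at an adjusted p from 0 to 4 lower. The replicate numbers did not pair the libraries (r of deviations over 0.1 in 0 of 48 pairs, -0.27 to 0.07). For the average over tissues, 0 became 2 lower in DESeq2, 1 in the additive model, 1 in it without spleen and bone and 1 in it without replicate 1. Against the 12 other tissues, the 15 members of bone became 25 in Scx-/- libraries alone, 24 in the additive model and at fewest 9 without replicate 1. The 5 of intestine became 14 in wild-type and 0 in Scx-/- libraries alone, 8 in DESeq2, 13 in the additive model, 1 to 6 without one replicate, and 2 to 6 without single intestine libraries. The 11 of rectum became 18 on library totals (10.1% of all genes, from 5.01%), 7 in wild-type libraries alone and 7 without replicate 1 or 3. Ube2c in adipose ran from -6.21 to 1.54 (log2 fold change) without one replicate and reversed without wild-type replicate 3, which held its counts. The causes were not tested. The 39 members of spleen kept their direction in the alternatives run, with 30 called in DESeq2, 31 without replicate 1 (7.21% of all genes), 32 without spleen Scx-/- replicate 1 (7.59%) and 37 in Scx-/- libraries alone (6.49%). Depth limits members near 0.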
